A study of Mus musculus with 23 samples.

Results

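The genes described here are 33 genes of protein folding and quality control in the endoplasmic reticulum and of the unfolded protein response, taken by name from a table of 49492 mouse genes. All 33 passed the filter on low counts, as did 18015 genes in all. They comprise 9 lumenal chaperones and co-chaperones, 2 lectin chaperones, 7 disulfide isomerases and oxidases, 4 stress sensors and transcription factors, 7 genes of endoplasmic-reticulum-associated degradation (ERAD) and 4 genes of the translocon. The samples were CD8+ T cells isolated from mouse spleen, from which polyadenylated RNA was sequenced. KO cells carried Lckcre-PLPP1fl/fl, a floxed Plpp1 gene with a Cre recombinase driven by the Lck promoter, which is active in T cells, and WT cells carried PLPP1fl/fl, the same floxed gene without Cre. Plpp1 encodes a membrane lipid phosphatase. Cells of each genotype were treated with arachidonic acid (AA), a polyunsaturated fatty acid, with octadecenoic acid (OA), a monounsaturated one, or left untreated. There were 4 libraries each of KO with AA, untreated KO, WT with AA, WT with OA and untreated WT, and 3 libraries of KO with OA. The labels give no dose, treatment time, age or sex, and do not say whether libraries came from separate animals, so that each p-value reflects only how much these libraries spread, which may be technical.

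Proteins that enter the endoplasmic reticulum through the SEC61 translocon are folded there by chaperones such as BiP (Hspa5) and GRP94 (Hsp90b1), by the lectins calnexin and calreticulin, and by protein disulfide isomerases. Chains that do not fold are passed back to the cytosol for degradation (ERAD). When unfolded chains accumulate, the sensors IRE1α (Ern1), PERK (Eif2ak3) and ATF6 (Atf6) start the unfolded protein response, in which IRE1α splices the messenger RNA of Xbp1, PERK phosphorylates the translation factor eIF2α, and ATF6 and XBP1 switch on genes of chaperones and ERAD. Activated T cells, which enlarge and secrete cytokines, are known to use this response. Counts per gene do not show Xbp1 splicing, PERK activity or ATF6 cleavage, so what follows concerns RNA levels.

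The best known promoter element of these genes is the endoplasmic reticulum stress element (ERSE), bound by NF-Y at one end and by ATF6 or XBP1 at the other. It was searched for on both strands, as CCAAT, then 9 bases of any kind, then CCACG, in RefSeq promoter windows of GRCm38.p6, which run from 250 bases before to 50 bases after the start of a gene. Windows were found for 27 of the 33 genes, and 9 of the 27 (33.3%) held an ERSE, against 37 of 27025 genes (0.137%) with a window of the same length. Since the element was described in genes of this kind, this share describes the genes and is no result of the experiment. The sequences below are shown because they let the 9 genes be compared base by base. Each is read 5′ to 3′ on the strand of its gene, lies before the RefSeq start, and has 10 bases on each side of the element. The capitals mark the CCAAT part and the CCACG part, or their reverse complements ATTGG and CGTGG where the element lies on the other strand.
Hspa5, chr2:34772015-34772053, plus strand: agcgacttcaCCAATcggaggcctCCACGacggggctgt
Canx, chr11:50325790-50325828, minus strand: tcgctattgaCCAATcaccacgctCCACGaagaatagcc
Dnajc3, chr14:118937817-118937855, plus strand: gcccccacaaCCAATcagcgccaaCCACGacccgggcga
Pdia6, chr12:17266481-17266519, plus strand: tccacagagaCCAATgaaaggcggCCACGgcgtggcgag
Syvn1, chr19:6046522-6046560, plus strand: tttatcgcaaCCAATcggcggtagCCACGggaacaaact
Calr, chr8:84847065-84847103, minus strand: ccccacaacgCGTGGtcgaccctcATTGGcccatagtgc
Creld2, chr15:88819510-88819548, plus strand: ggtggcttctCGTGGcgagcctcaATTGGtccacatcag
Ero1lb, chr13:12565672-12565710, plus strand: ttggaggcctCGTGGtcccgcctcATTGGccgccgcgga
Hsp90b1, chr10:86705523-86705666, minus strand: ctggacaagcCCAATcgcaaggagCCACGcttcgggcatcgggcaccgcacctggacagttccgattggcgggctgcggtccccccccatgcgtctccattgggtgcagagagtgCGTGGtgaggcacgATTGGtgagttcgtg

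Hsp90b1 held 2 elements, 1 on each strand, and each of the other 8 genes held 1. The shorter ERSE-II, searched for on both strands as ATTGG, 1 base of any kind and CCACG, was found in 2 of the 27 genes, Dnajb11 and Herpud1, against 0.0444% of all genes with a window. The XBP1 element UPRE, searched for as TGACGTGG on both strands, was found in 1 of the 27, Txndc5, against 0.714% of all genes. In all, 12 of the 27 genes held at least 1 of the 3 motifs. The last bases of UPRE are also the CGTGG end of a reversed ERSE, but no gene of the 27 held both. A match is a run of letters and was not tested as a binding site. For Hspa5 the gene in the count table starts before the RefSeq start, so its element lies inside the counted gene.

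Each library held between 39265131 and 58878203 counts, and no library stood apart from its group over all genes. The labelled cell type had its markers. The 7 genes of a CD8 T cell list were summed as CPM (counts scaled to a common library size). Their sum was 1902 to 2171 CPM in KO libraries and 2206 to 2393 CPM in WT libraries. These genes did not move together. Trac averaged 131.3 CPM in untreated KO and 253.9 CPM in untreated WT, and Cd8b1 538.4 and 457.9 CPM. By the edgeR test used below, 2 of the 7 were higher in untreated KO, 4 were lower and 1 was not called. The sum therefore does not count CD8 T cells. The B cell genes Ms4a1 and Pax5 averaged at most 0.0457 CPM in any group. Other B cell genes were present, with group means of 270.5 to 308.6 CPM for Ighm, 1.49 to 2.01 CPM for Cd79a, 2.08 to 2.83 CPM for Cd79b and 0.0695 to 0.292 CPM for Igkc. Plpp1 held 15 to 37 counts in KO libraries and 17 to 39 in WT libraries, so it does not check the genotype labels. Genotype also ran with other features. One T cell receptor beta gene, Trbv12-1, held 3.269% to 4.324% of Trbv counts in KO libraries, against 81.62% to 85.95% in WT libraries, and Xist lay at 2.974 to 5.35 CPM in KO libraries, against 784 to 883.5 CPM in WT libraries. Ddx3y, a gene of the Y chromosome, lay at 95.52 to 107.8 CPM in KO libraries and 56.89 to 63.99 CPM in WT libraries. Every WT library thus held RNA of both Xist and Ddx3y. The part of these features in the differences between KO and WT cannot be told apart from that of the deletion.

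The 33 genes covered a wide range of levels. Per length of transcript, as RPKM (CPM divided by the length of the gene in kilobases), the mean level over all 23 libraries was highest for Hsp90b1, the lumenal HSP90, at 426.8 RPKM, followed by Calr at 237.8 RPKM, Canx at 145.8 RPKM and Pdia3 at 138.7 RPKM. BiP (Hspa5) lay at 67.1 RPKM. The sensors and Xbp1 lay lower than these, with Eif2ak3 at 22.4 RPKM, Xbp1 at 10.1 RPKM, Atf6 at 3.16 RPKM and Ern1 at 1.87 RPKM. The lowest of all was Ero1lb, a thiol oxidase known from pancreas, at 1.38 RPKM. Counts per library ran from 61948 to 104516 for Hsp90b1 and from 180 to 347 for Ero1lb. The median SD within a group, as a percentage of the mean, was 8.05% for Syvn1, the highest of the 33, and 1.67% for Eif2ak3, the lowest. Together the 33 genes took 0.591 ± 0.0136% of all counts in KO with AA, 0.625 ± 0.00297% in KO with OA and 0.610 ± 0.00983% in untreated KO. In WT they took 0.529 ± 0.0110% with AA, 0.529 ± 0.00506% with OA and 0.526 ± 0.0107% untreated (SD, n = 4, and 3 for KO with OA). No KO library overlapped a WT library in this share. It mostly reflects the most abundant genes, with means of 1721 CPM for Hsp90b1, 685 CPM for Calr, 684 CPM for Canx and 435 CPM for Pdia3.

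**Figure D1:**
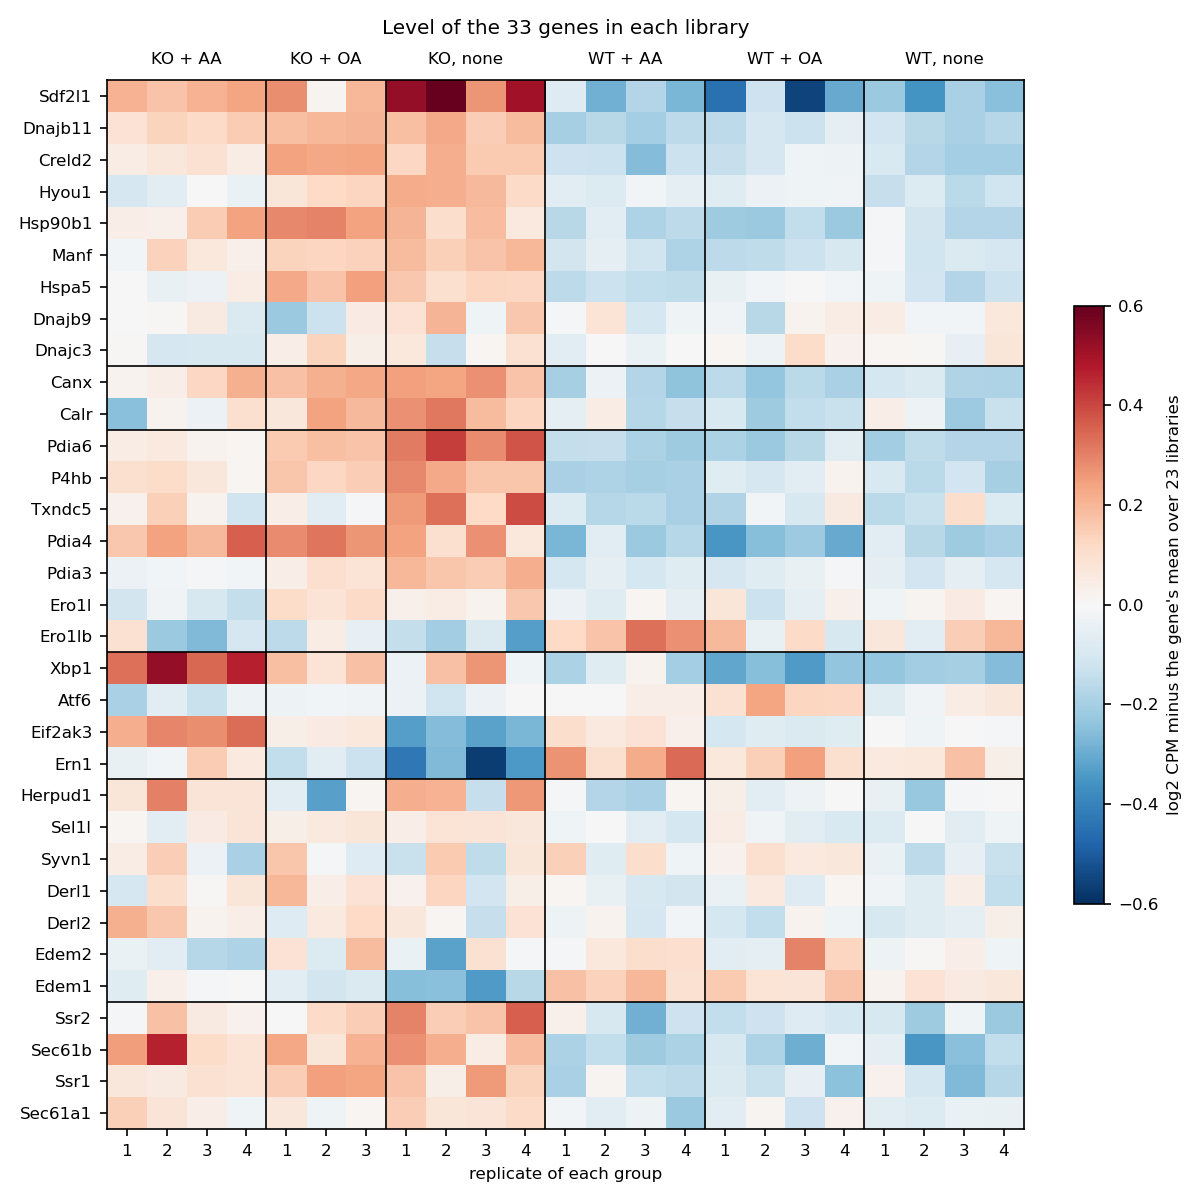
Level of the 33 genes in each of the 23 libraries, as log2 CPM minus the mean of the gene over all libraries. Columns are replicates within groups and rows are genes by role, with colours saturating at 0.6 in either direction. The upper rows (chaperones, lectins and isomerases) are mostly red in untreated KO and blue in the WT groups, while Eif2ak3, Ern1 and Edem1 run the other way between untreated KO and WT.

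The first comparison addressed how KO differed from WT without fatty acid. Chaperones, lectins, isomerases and translocon genes were mostly higher in KO, while the sensors Ern1 and Eif2ak3 were lower. With edgeR (quasi-likelihood test, Benjamini-Hochberg adjusted over all tested genes, threshold 0.05), 21 of the 33 genes were higher in KO and 4 were lower, while 49.8% of all tested genes were called in this comparison, 25.6% higher and 24.2% lower. Called members therefore made up 75.8% of the list. The libraries of KO and WT did not overlap for 24 of the 33, and for 43.2% of all tested genes. The median log2 difference was 0.25 over the 33 genes and -0.0029 over all tested genes. The differences were small, between 1.40-fold lower for Ern1 and 1.69-fold higher for Sdf2l1. In bulk RNA, fewer cells of a type and less RNA per cell cannot be told apart.

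Of the 9 lumenal chaperones and co-chaperones, 7 were higher in KO and none was lower. BiP (Hspa5), the HSP70 chaperone that also holds the sensors inactive, lay at 316, 302, 309.6 and 308 CPM in untreated KO and at 278, 262, 250.3 and 259 CPM in untreated WT. All 4 KO libraries were above all 4 WT libraries, by 1.18-fold (log2 0.24 ± 0.032, SE, edgeR adjusted p = 7.6e-08). Dnajb11, an HSP40 partner of BiP, lay at 160.4, 166, 157 and 162 CPM in KO and at 131, 126, 124 and 126 CPM in WT. Its groups were apart by far more than the spread within either, with KO 1.27-fold higher (log2 0.35 ± 0.03, edgeR adjusted p = 3.75e-12). Sdf2l1, a small BiP cofactor, had the largest ratio of the 33, at 10.03, 11.03, 8.38 and 9.88 CPM in KO and 5.98, 5.43, 6.08 and 5.86 CPM in WT (log2 0.75 ± 0.087, edgeR adjusted p = 3.03e-09). Hyou1, which exchanges nucleotide on BiP, was 1.24-fold higher in KO, Hsp90b1 1.20-fold, Creld2 1.26-fold and Manf, a secreted stress protein, 1.19-fold. Dnajb9 and Dnajc3, a pair of further BiP cofactors, were not called, with log2 differences of 0.09 (95% confidence interval -0.04 to 0.22) and -0.0032 (-0.09 to 0.08). Both lectins were higher in KO, Canx by 1.29-fold and Calr by 1.24-fold.

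Among the 7 disulfide isomerases and oxidases, 5 were higher in KO and 1 was lower. Pdia6, a disulfide isomerase, lay at 158, 170.0, 156 and 166 CPM in KO and 110.4, 115, 113 and 113 CPM in WT. The lowest KO library was well above the highest WT library, and the difference of 1.44-fold had the smallest adjusted p of the 33 (log2 0.53 ± 0.034, edgeR adjusted p = 1.1e-15). P4hb, the classical disulfide isomerase PDI, lay at 274, 263, 252 and 252 CPM in KO and 211, 201, 208 and 195 CPM in WT. It too did not overlap between the groups and was 1.28-fold higher in KO (log2 0.35 ± 0.034, edgeR adjusted p = 4.26e-11). Pdia4 was 1.26-fold, Txndc5 1.27-fold and Pdia3, which serves the lectins and the MHC class I loading complex, 1.20-fold higher. Of the pair of oxidases that feed PDI, Ero1l was not called (log2 0.05, 95% confidence interval -0.04 to 0.15) and Ero1lb was 1.21-fold lower, a call lost without replicate 4 of untreated KO (edgeR adjusted p = 0.0516). All 4 translocon genes were higher in KO, Ssr2 by 1.31-fold, Sec61b by 1.30-fold, Ssr1 by 1.21-fold and Sec61a1 by 1.12-fold.

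Of the 3 sensors and the transcription factor Xbp1, Xbp1 was higher in untreated KO, Eif2ak3 and Ern1 were lower and Atf6 was not called. Eif2ak3, which encodes PERK (chromosome 6, 70844515 to 70905245, GRCm38), lay at 106, 112, 107 and 111 CPM in untreated KO and 134, 132, 134 and 133 CPM in untreated WT. Every KO library was below every WT library, by 1.22-fold (log2 -0.29 ± 0.03, edgeR adjusted p = 3.25e-10). Ern1, which encodes IRE1α, lay at 11.2, 12.6, 10.2 and 11.9 CPM in KO and 15.7, 15.7, 17.03 and 15.5 CPM in WT. Its KO libraries were likewise all lower, by 1.40-fold (log2 -0.48 ± 0.064, edgeR adjusted p = 7.28e-08). Xbp1, the transcription factor spliced by IRE1α, lay at 31.3, 36.3, 38.6 and 31.5 CPM in KO and 27.4, 27.8, 27.9 and 26.9 CPM in WT. All KO libraries were higher but spread more widely than those of WT, and the difference was 1.25-fold (log2 0.33 ± 0.058, edgeR adjusted p = 1.21e-05). Atf6 lay at 28.4, 26.7, 28.4 and 29.1 CPM in KO and 27.7, 28.6, 30.00 and 30.5 CPM in WT. Its groups overlapped and it was not called (log2 -0.05 ± 0.045, edgeR adjusted p = 0.354, 95% confidence interval -0.14 to 0.04). Of the 7 ERAD genes, Herpud1 (1.16-fold) and Sel1l, the scaffold of the HRD1 ligase (1.08-fold), were higher in KO. Edem1, a lectin that hands misfolded glycoproteins to ERAD, was 1.24-fold lower, and Syvn1 (the HRD1 ligase itself), Derl1, Derl2 and Edem2 were not called. The call of Herpud1 was lost in 6 alternatives, with upper quartile scaling, with a stricter filter (at least 1 CPM in 4 libraries and at least 10 CPM in 1), and without replicate 1, 2 or 4 of untreated KO or replicate 2 of untreated WT (highest edgeR adjusted p = 0.138). That of Sel1l was lost with upper quartile scaling and with the stricter filter (highest 0.0981), while Atf6 was called lower with the stricter filter (0.0454).

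Plasma cells have high levels of these genes. Their markers Jchain, Mzb1, Tnfrsf17 and Ighg1 averaged at most 0.08 CPM in any group, and the plasma cell list summed to 3.105 to 5.157 CPM in untreated KO and 2.965 to 3.933 CPM in untreated WT. Of its 3 tested genes, Prdm1 was higher in KO (log2 0.59), Igha lower (log2 -1.93) and Sdc1 was not called. Summed markers of NK cells were 25.82 to 41.91 CPM in KO libraries and 15.12 to 20.86 CPM in WT libraries. Those of dendritic cells were 10.12 to 16.65 CPM in KO and 19.33 to 28.46 CPM in WT, and those of CD4 T cells 14.77 to 18.95 CPM in KO and 22.45 to 25.22 CPM in WT. Those of platelets and megakaryocytes were 3.415 to 7.348 CPM in KO and 8.479 to 11.74 CPM in WT. Most of the NK sum was Eomes, with means of 39.6 CPM in untreated KO and 19.3 CPM in untreated WT. Ncr1, Klrb1c and Ncam1 each averaged at most 0.452 CPM in any group. Foxp3 held most of the CD4 sum, at 13.2 and 20.8 CPM in untreated KO and WT, where Cd4 averaged 2.27 and 2.52 CPM. Itga2b held most of the platelet sum, at 3.43 and 7.23 CPM. The NK, CD4 and platelet sums therefore mostly follow a single gene each and do not count such cells. The dendritic sum was mostly H2-Ab1, at 4.69 and 11.1 CPM in untreated KO and WT, and Cd74, at 6.11 and 10.6 CPM. Of the 7 dendritic cell genes, 3 were lower in untreated KO, none was higher and 4 were not called. That sum does not count such cells either. Mitochondrial genes took 1.668% to 2.319% of counts in KO and 1.509% to 1.746% in WT, with the highest share in replicate 1 of KO with AA and the other KO libraries at most 2.054%. Their part in the differences was not tested.

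**Figure D2:**
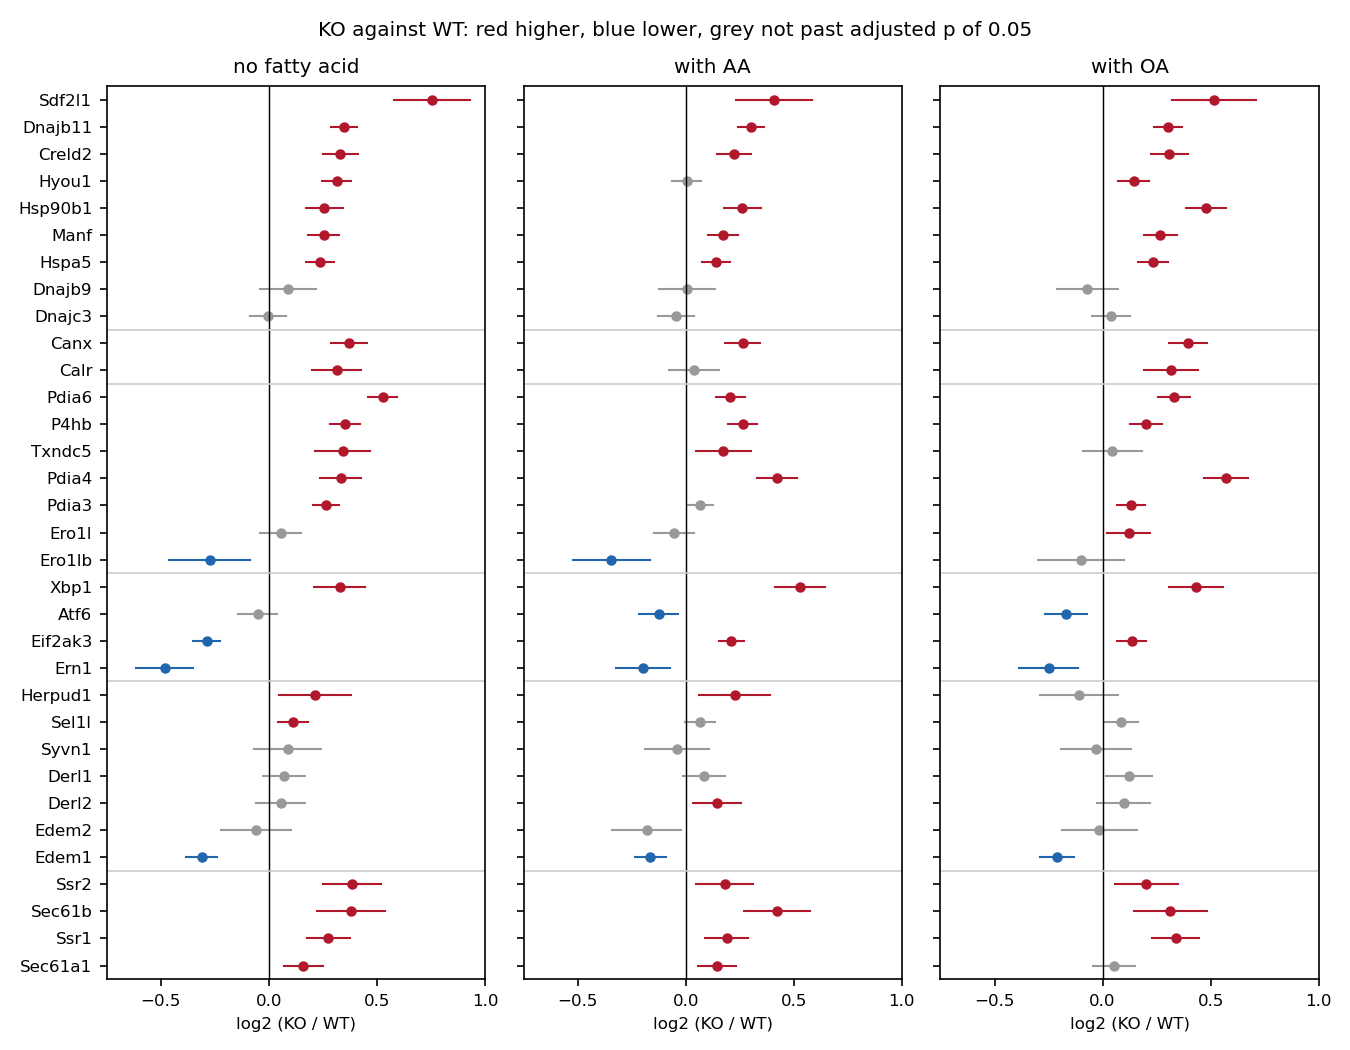
Log2 ratio of KO over WT for the 33 genes in untreated cells, in cells with AA and in cells with OA, in rows by role. Points are edgeR estimates, lines are 95% confidence intervals, red is higher in KO, blue lower and grey not called. The point of Eif2ak3 is left of 0 without fatty acid (-0.29) and right of 0 with AA (0.21) and OA (0.13).

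The same genotypes were then compared under each fatty acid. With AA, 19 genes were higher in KO and 4 lower, where 42.7% of all tested genes were called, 21.5% higher and 21.2% lower. With OA 19 were higher and 3 lower, where 43.1% were called, 21.7% higher and 21.4% lower. The median log2 difference over the 33 genes was 0.14 with AA and 0.13 with OA. Higher in KO in all 3 conditions were 14 of the 33, namely Hspa5, Hsp90b1, Dnajb11, Sdf2l1, Manf, Creld2, Canx, Pdia4, Pdia6, P4hb, Xbp1, Sec61b, Ssr1 and Ssr2, and 2, Ern1 and Edem1, were lower in all 3. Of all tested genes, 13.7% were higher in all 3 conditions and 12.9% lower. Dnajb9, Dnajc3, Syvn1, Edem2 and Derl1 were called in none of the 3, as were 34.7% of all tested genes.

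With AA, Xbp1 lay at 40.4, 46.3, 40.8 and 44.5 CPM in KO and 28.2, 30.6, 32.6 and 27.9 CPM in WT. The groups were well apart, with KO 1.44-fold higher (log2 0.53 ± 0.057, edgeR adjusted p = 1.01e-09). Dnajb11 lay at 150.5, 155, 154 and 158 CPM in KO with AA and 124, 126, 123 and 127 CPM in WT with AA, which did not overlap (log2 0.30 ± 0.03, edgeR adjusted p = 1.65e-10). Pdia4, another disulfide isomerase, lay at 228, 242, 234 and 262 CPM in KO with AA and 169, 195, 175 and 181 CPM in WT with AA. KO was 1.34-fold higher, again without overlap (log2 0.42 ± 0.046, edgeR adjusted p = 1.78e-09). P4hb lay at 239.8, 243, 235 and 226 CPM in KO with AA and 196, 198, 196 and 197 CPM in WT with AA. Its WT libraries were nearly identical and all below KO (log2 0.26 ± 0.034, edgeR adjusted p = 4.96e-08). Hyou1 and Calr, both higher in untreated KO, were not called with AA, with log2 differences of 0.0049 (95% confidence interval -0.06 to 0.07) and 0.04 (-0.08 to 0.15). Also higher in KO with AA were Hspa5 (1.10-fold), Sec61b (1.34-fold), Sdf2l1 (1.33-fold), Canx (1.20-fold), Hsp90b1 (1.20-fold), Herpud1 (1.17-fold), Creld2 (1.17-fold), Pdia6 (1.15-fold), Ssr1 (1.14-fold), Ssr2 (1.13-fold), Manf (1.13-fold), Txndc5 (1.13-fold), Derl2, a channel protein of ERAD (1.10-fold), and Sec61a1 (1.10-fold). Ero1lb (1.27-fold), Ern1 (1.15-fold) and Edem1 (1.12-fold) were lower. The call of Derl2 was lost in 7 alternatives (highest edgeR adjusted p = 0.13), among them without replicate 1 or 2 of KO with AA or replicate 1 or 3 of WT with AA. That of Herpud1 was lost without replicate 2 of KO with AA or replicate 2 or 3 of WT with AA (highest 0.117), Txndc5 without replicate 2 of KO with AA or replicate 4 of WT with AA (0.103) and Sec61a1 without replicate 4 of WT with AA (0.0632).

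With OA, Pdia4 lay at 248, 255 and 246 CPM in KO and 160.1, 171, 175 and 166 CPM in WT. The 3 KO libraries were all far above the 4 WT libraries, by 1.49-fold (log2 0.57 ± 0.05, edgeR adjusted p = 8.26e-12). Hsp90b1 lay at 2087, 2099.5 and 2021 CPM in KO with OA and 1474, 1463, 1542 and 1461 CPM in WT with OA, 1.39-fold higher in KO (log2 0.48 ± 0.046, edgeR adjusted p = 7.76e-11). The library of WT with OA at the top of its group was still far below KO. Dnajb11 lay at 161, 163 and 163 CPM in KO with OA and 127, 132, 129.9 and 136 CPM in WT with OA (log2 0.30 ± 0.032, edgeR adjusted p = 7.89e-10). Pdia6 lay at 142, 145 and 144 CPM in KO with OA and 112, 109, 114 and 122 CPM in WT with OA, also without overlap (log2 0.33 ± 0.036, edgeR adjusted p = 1.69e-09). Hspa5, at 331, 319 and 335 CPM in KO with OA and 275, 279, 283 and 280.1 CPM in WT with OA, was 1.18-fold higher. Also higher in KO with OA were Sdf2l1 (1.43-fold), Xbp1 (1.35-fold), Canx (1.32-fold), Ssr1 (1.26-fold), Calr (1.24-fold), Creld2 (1.24-fold), Sec61b (1.24-fold), Manf (1.20-fold), P4hb (1.15-fold), Ssr2 (1.15-fold), Hyou1 (1.10-fold), Pdia3 (1.10-fold) and Ero1l (1.09-fold). Ern1 (1.19-fold) and Edem1 (1.16-fold) were lower. The call of Ero1l was lost in 9 alternatives (highest edgeR adjusted p = 0.21), among them without any of the 3 libraries of KO with OA or replicate 2 or 3 of WT with OA.

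Eif2ak3 was the only one of the 33 called in all 3 conditions with signs that differed. Its log2 ratio of KO over WT was -0.29 untreated, 0.21 with AA (edgeR adjusted p = 2.62e-07) and 0.13 with OA (edgeR adjusted p = 7.76e-04). Atf6 was lower in KO with AA (log2 -0.12, edgeR adjusted p = 0.0221) and with OA (log2 -0.17, 0.00454). Atf6 lay at 25.4, 27.8, 26.6 and 28.5 CPM in KO with AA and 29.2, 29.03, 29.9 and 29.9 CPM in WT with AA, and at 28.5, 28.8 and 28.7 CPM in KO with OA and 30.96, 34.3, 31.8 and 31.7 CPM in WT with OA. The libraries of KO and WT did not overlap under either acid. The call of Atf6 with AA was lost with no filter and without replicate 1 or 3 of KO with AA or replicate 3 or 4 of WT with AA (highest edgeR adjusted p = 0.0983), and that of Ern1 with AA without replicate 4 of WT with AA (0.0511). The call of Ssr2 was lost in 3 alternatives with AA (highest 0.123), among them without replicate 2 of KO with AA or replicate 3 of WT with AA, and in 5 with OA (highest 0.0879), among them without replicate 2 or 3 of KO with OA or replicate 1 of WT with OA.

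The next comparisons addressed what each fatty acid did within KO cells. PERK and IRE1α transcripts rose and several chaperones and isomerases fell with AA. With AA, 4 of the 33 genes were higher and 12 lower than in untreated KO, while 27.6% of all tested genes were called, 12.2% higher and 15.4% lower. With OA, 4 were higher and 6 lower, while 23.2% of all tested genes were called, 10.5% higher and 12.7% lower. Both comparisons use the same untreated KO libraries, so their values are given side by side. The median log2 change over the 33 genes was -0.06 with AA and 0.03 with OA, against -0.01 over all tested genes in each.

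Eif2ak3 lay at 156, 164, 163 and 169 CPM in KO with AA, 138, 139 and 140.1 CPM in KO with OA and, as given above, at 106 to 112 CPM in untreated KO. The 3 groups did not overlap. Eif2ak3 was 1.49-fold higher with AA (log2 0.58 ± 0.03, edgeR adjusted p = 3.16e-17) and 1.27-fold higher with OA (log2 0.35 ± 0.032, edgeR adjusted p = 2.27e-10). Among the 33 genes it had the smallest adjusted p under both acids. Ern1 lay at 14.6, 14.9, 16.8 and 15.7 CPM in KO with AA and 13.6, 14.4 and 13.8 CPM in KO with OA, all above the 10.2 to 12.6 CPM of untreated KO. It was 1.35-fold higher with AA (log2 0.44 ± 0.064, edgeR adjusted p = 1.65e-06) and 1.22-fold higher with OA (log2 0.29 ± 0.07, edgeR adjusted p = 0.00237). Edem1 lay at 107, 115, 112 and 113 CPM with AA, 108, 104 and 106 CPM with OA and 94.4, 94.7, 88.9 and 100.3 CPM in untreated KO. The untreated libraries were again the lowest, with log2 changes of 0.24 ± 0.035 with AA (edgeR adjusted p = 1.65e-06) and 0.17 ± 0.038 with OA (edgeR adjusted p = 0.00125). Xbp1 was 1.25-fold higher with AA (log2 0.32 ± 0.056, edgeR adjusted p = 3.3e-05), and its 4 libraries at 40.4 CPM or more lay above the highest untreated library at 38.6 CPM. With OA, Xbp1 lay at 36.4, 34.1 and 36.3 CPM and overlapped untreated KO (log2 0.04, edgeR adjusted p = 0.673, 95% confidence interval -0.08 to 0.17). Atf6 was called with neither acid (log2 -0.06, 95% confidence interval -0.15 to 0.04, with AA and 0.03, -0.07 to 0.12, with OA).

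**Figure D3:**
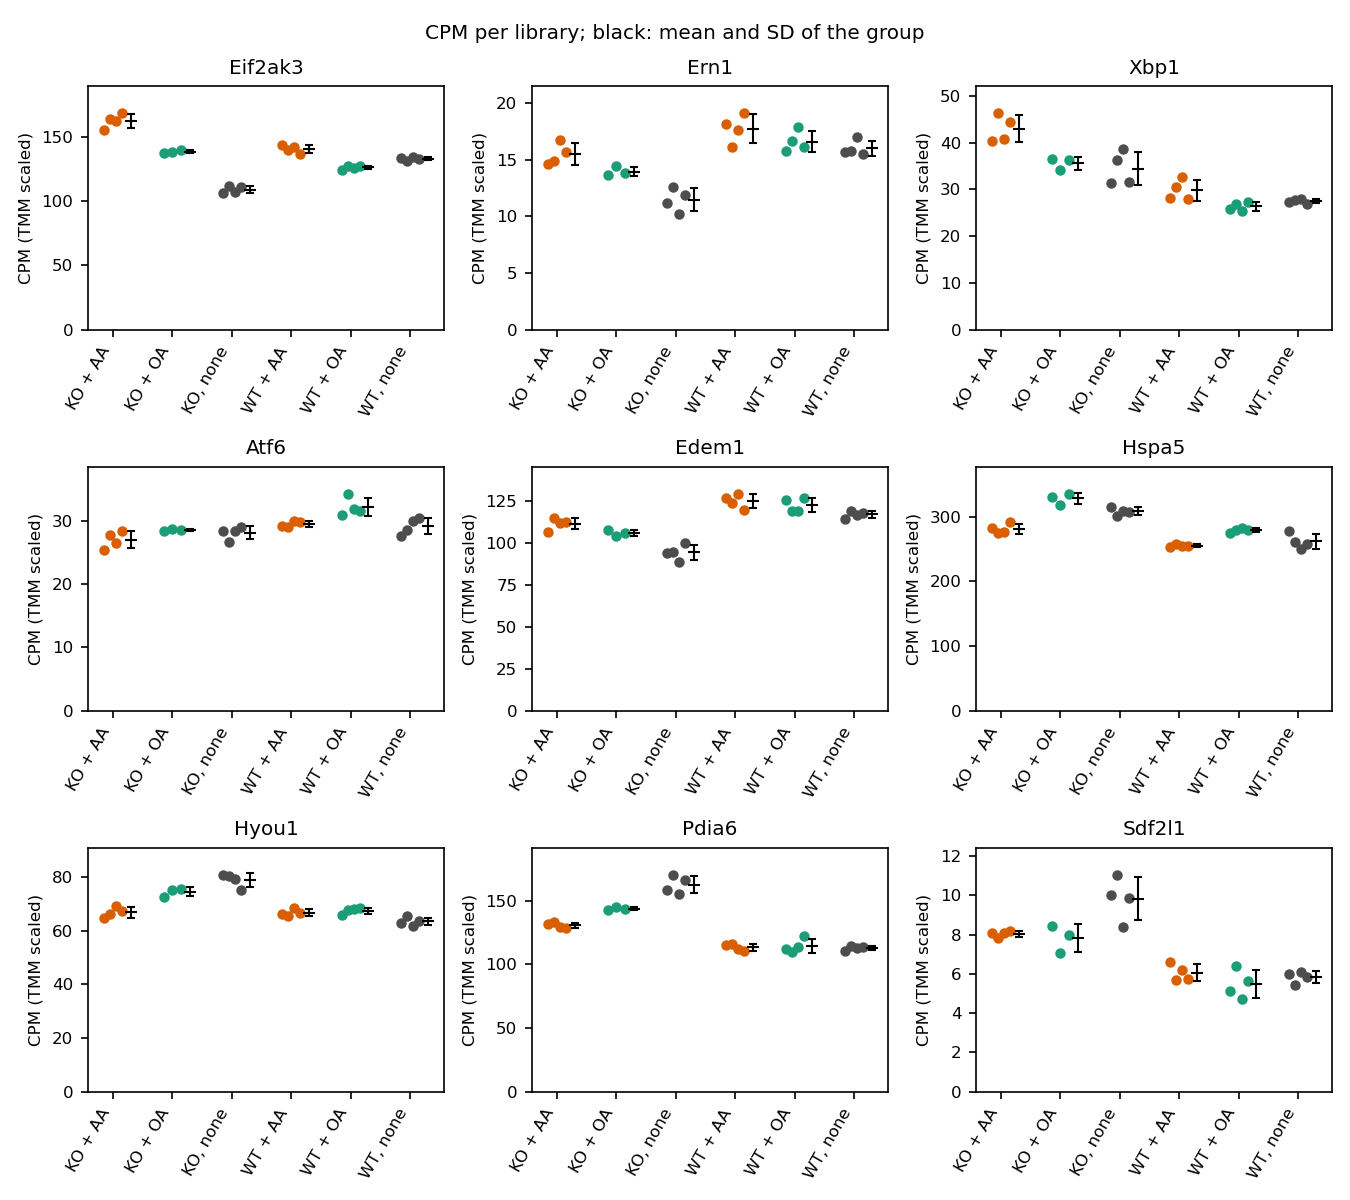
CPM of 9 genes in every library, with the mean and SD of each group in black, orange for AA, green for OA and grey for untreated. The y axes start at 0. Eif2ak3 is lowest in untreated KO and highest in KO with AA, and Pdia6, Hyou1 and Sdf2l1 have their highest mean in untreated KO.

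Of the 18 chaperones, lectins, isomerases and oxidases, 11 were lower with AA and none was higher, namely 4 of the 9 lumenal chaperones, both lectins and 5 of the 7 isomerases and oxidases. With OA 5 of the 18 were lower and 1, Hsp90b1, was higher. Pdia6 lay at 132, 133, 129.6 and 129 CPM in KO with AA and 142, 145 and 144 CPM in KO with OA, below every untreated KO library. It was 1.24-fold lower with AA (log2 -0.31 ± 0.033, edgeR adjusted p = 2.75e-09) and 1.13-fold lower with OA (log2 -0.18 ± 0.036, edgeR adjusted p = 2.98e-04). Hyou1 lay at 64.6, 66.3, 69.3 and 67.4 CPM with AA, 72.7, 75.2 and 75.7 CPM with OA and 80.8, 80.5, 79.3 and 75.03 CPM in untreated KO. AA libraries were below all untreated ones (log2 -0.24 ± 0.033, edgeR adjusted p = 5.89e-07), while with OA the change of -0.08 was not called (edgeR adjusted p = 0.0944). Txndc5, a thioredoxin-domain isomerase, lay at 22.4, 24.3, 22.4 and 20.3 CPM with AA, 22.7, 21.1 and 21.9 CPM with OA and 26.3, 27.7, 23.96 and 28.98 CPM in untreated KO. It was 1.22-fold lower with OA, whose 3 libraries lay below all untreated ones (log2 -0.29 ± 0.067, edgeR adjusted p = 0.00137), and 1.19-fold lower with AA. BiP (Hspa5) was 1.10-fold lower with AA, at 282, 274, 276 and 292 CPM, all under the 302 CPM of the lowest untreated library (log2 -0.14 ± 0.032, edgeR adjusted p = 0.00101). With OA it lay at 331, 319 and 335 CPM and was not called (log2 0.09, edgeR adjusted p = 0.0579), although 6 of the alternatives called it.

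Other genes called lower with AA in KO were Pdia3 (1.15-fold), Calr (1.20-fold), P4hb (1.10-fold), Sdf2l1 (1.22-fold), Manf (1.09-fold), Ero1l (1.11-fold), Canx (1.09-fold) and Ssr2 (1.13-fold). With OA they were Pdia3 (1.08-fold), Sdf2l1 (1.25-fold), Dnajb9 (1.15-fold) and Herpud1, a membrane protein of the HRD1 complex (1.20-fold). Hsp90b1 was 1.10-fold higher with OA. Among the calls with AA, that of Canx was lost without replicate 1 or 2 of KO with AA (highest edgeR adjusted p = 0.126). That of Manf was lost without replicate 1 of KO with AA (0.0986). Both were also lost in a fit of just the groups compared (edgeR adjusted p = 0.0691 and 0.0545). The call of Ero1l was lost without replicate 4 of untreated KO (0.0532), Sdf2l1 without replicate 2 of untreated KO (0.0562) and Ssr2 in 7 alternatives (highest 0.145). Among the calls with OA, that of Pdia3 was lost without replicate 1 of KO with OA (0.0781), Sdf2l1 without replicate 2 of KO with OA (0.0863), and Dnajb9, Herpud1 and Hsp90b1 in 6, 6 and 5 alternatives (highest 0.202, 0.263 and 0.107), each without replicate 2 of KO with OA among others. The CD8 list summed to 1902 to 2023 CPM in KO with AA and 1925 to 2009 CPM in KO with OA, against 2106 to 2171 CPM in untreated KO, and the NK list to 25.82 to 28.56 CPM with AA and 26.7 to 28.25 CPM with OA, against 38.53 to 41.91 CPM untreated. The platelet list summed to 5.662 to 7.348 CPM in KO with AA and 5.007 to 6.439 CPM in KO with OA, against 3.415 to 4.479 CPM in untreated KO. The dendritic cell list lay at 14.75 to 16.65 CPM in KO with AA and 10.12 to 11.71 CPM in KO with OA, against 14.02 to 16.45 CPM in untreated KO. The NK sum was again mostly Eomes, with means of 26.5 CPM with AA, 26.6 CPM with OA and 39.6 CPM untreated. The platelet sum was mostly Itga2b, with means of 5.31, 5.19 and 3.43 CPM in that order. The dendritic sum was again mostly H2-Ab1 (4.12, 3.30 and 4.69 CPM) and Cd74 (7.57, 4.65 and 6.11 CPM). The part of these lists in the changes was not tested.

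In WT cells no gene of the 33 was called with either fatty acid by edgeR. With AA 4 of the 33 (12.1%) had an unadjusted p under 0.05, as did 7.89% of all tested genes, and with OA 8 did (24.2%), as did 15.8% of all tested genes. After adjustment 0.416% of all tested genes were called with AA (0.161% higher and 0.255% lower) and 3.73% with OA (1.23% higher and 2.5% lower). DESeq2 called 0 with AA and 1, Atf6, with OA. The largest absolute log2 change among the 33 was 0.15 with AA and 0.16 with OA. Eif2ak3 lay at 144, 139.7, 142 and 137 CPM in WT with AA and 125, 128, 126 and 127 CPM in WT with OA. All AA libraries were above and all OA libraries below the 132 to 134 CPM of untreated WT, with log2 changes of 0.08 (95% confidence interval 0.02 to 0.14, edgeR adjusted p = 0.423) and -0.08 (-0.14 to -0.01, 0.186). Ern1 lay at 18.2, 16.1, 17.6 and 19.1 CPM in WT with AA and 15.8, 16.6, 17.9 and 16.1 CPM in WT with OA, which overlapped untreated WT. Atf6 had the smallest adjusted p with OA (0.0728, log2 0.14 ± 0.045), and its 4 libraries with OA lay above those of untreated WT.

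**Figure D4:**
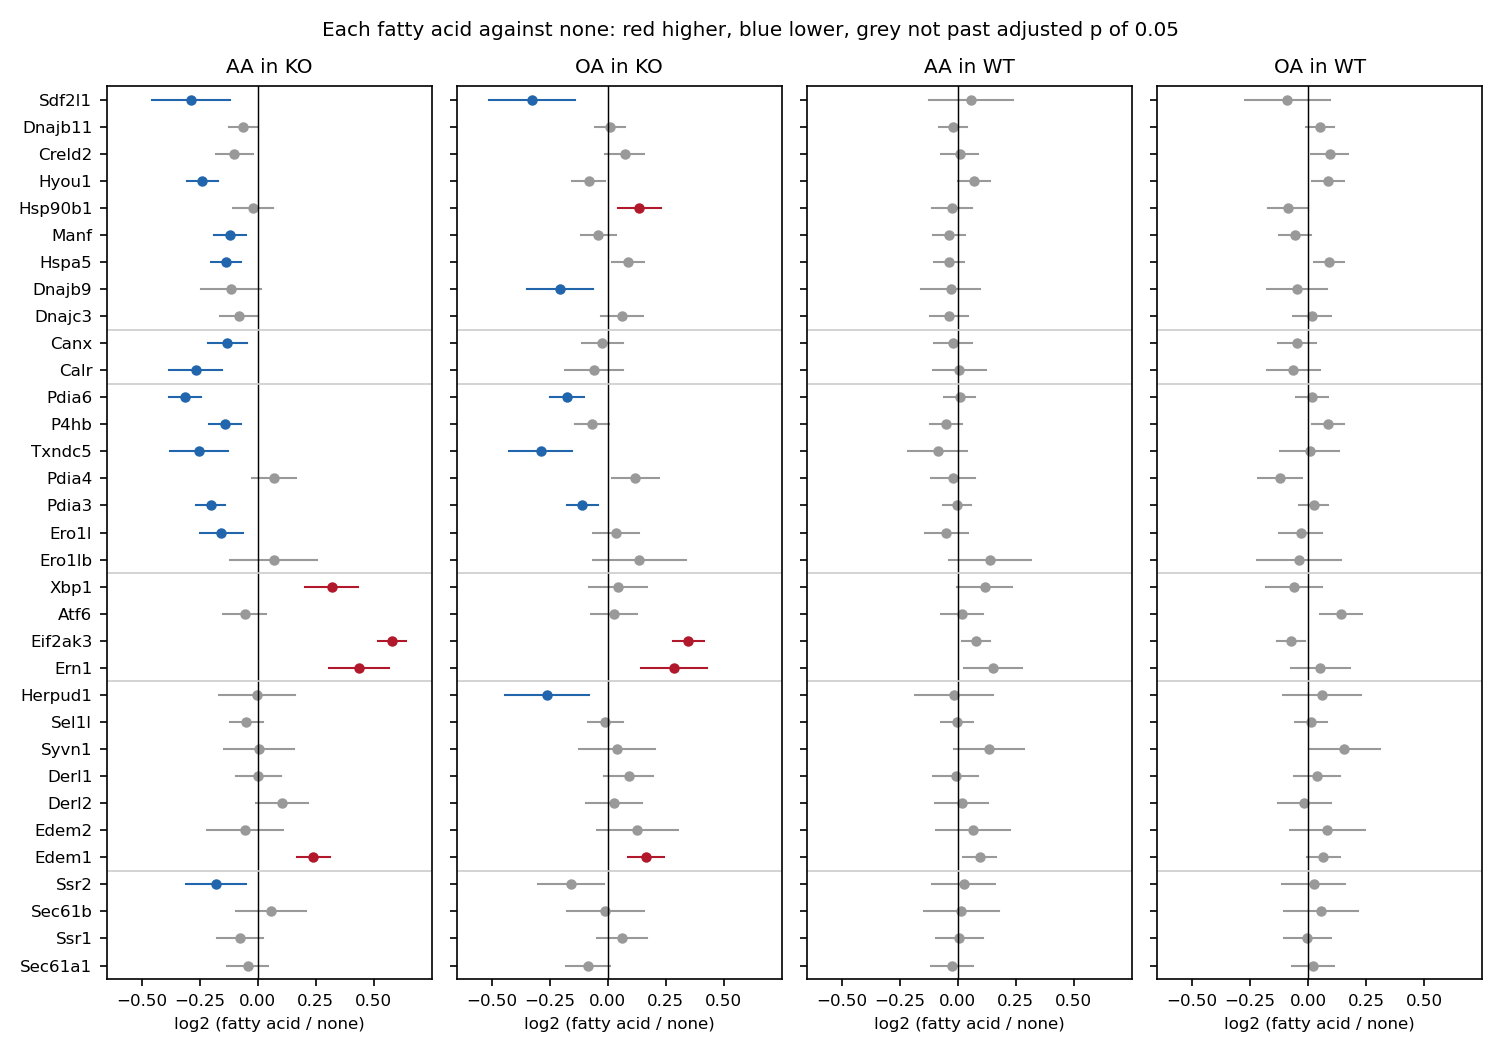
Log2 ratio of AA or OA over no fatty acid for the 33 genes in KO and in WT, in rows by role. Points are edgeR estimates with 95% confidence intervals, red for higher, blue for lower and grey for not called. In KO 16 genes are coloured with AA and 10 with OA, and in WT none is.

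Whether the acids acted differently in KO and WT was tested as an interaction. For AA, 3 of the 33 genes had an effect that was higher in KO than in WT and 4 one that was lower, while 13.9% of all tested genes were called, 5.97% higher and 7.98% lower. For OA the numbers were 3 and 5, while 12.5% of all tested genes were called, 5.9% higher and 6.62% lower. The effect on Eif2ak3 was larger in KO by 0.50 ± 0.042 on the log2 scale for AA (edgeR adjusted p = 1.5e-10) and by 0.42 ± 0.044 for OA (2.95e-08). For Pdia6 the difference was -0.32 ± 0.047 for AA (edgeR adjusted p = 8.13e-06) and -0.20 ± 0.049 for OA (0.00634), and for Hyou1 it was -0.31 ± 0.047 (1.28e-05) and -0.17 ± 0.049 (0.0179). These 3 genes and Pdia3 were called for both acids, which share their untreated libraries. Calr (log2 -0.27), Ern1 (0.29) and Edem1 (0.15) were called for AA. Hsp90b1 (0.22), Pdia4 (0.24), Txndc5 (-0.30) and P4hb (-0.15) were called for OA. Since the interaction uses the untreated libraries of both genotypes, it rests on the same low Eif2ak3 and high Pdia6 and Hyou1 values of untreated KO as the comparisons above. Calls of Edem1 (highest edgeR adjusted p = 0.111), Ern1 (0.0788) and Calr (0.0857) for AA were lost in 10, 4 and 4 alternatives, and those of Pdia3 (0.146), P4hb (0.16), Txndc5 (0.0952), Hyou1 (0.0771) and Pdia4 (0.054) for OA in 15, 12, 9, 3 and 1. The call of Ern1 was lost without replicate 3 of KO with AA, untreated KO or untreated WT or replicate 2 of WT with AA. That of Calr was lost without replicate 1 of KO with AA, replicate 1 or 2 of WT with AA or replicate 4 of untreated WT. Of the 8 genes called for OA, the count was 4 without replicate 4 of WT with OA and 5 without replicate 2 of KO with OA, replicate 2 of untreated WT or replicate 4 of untreated WT.

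AA and OA, which differ in chain length and in the number of double bonds, were compared directly, with the limit that the labels do not say whether the doses matched. In KO, 3 of the 33 genes were higher with AA than with OA and 9 lower, while 14% of all tested genes were called, 6.73% higher and 7.3% lower. Eif2ak3 was 1.17-fold higher with AA (log2 0.23 ± 0.032, edgeR adjusted p = 2.3e-06), Xbp1 1.21-fold higher (0.00165) and Herpud1 1.20-fold higher (0.0424). Hspa5 was 1.17-fold lower with AA (log2 -0.22 ± 0.034, edgeR adjusted p = 1.08e-05), and all 4 AA libraries lay below all 3 OA libraries. Hsp90b1, Hyou1, Creld2, Dnajc3, Calr, Pdia3, Pdia6 and Ero1l were also lower with AA, by 1.07-fold to 1.15-fold. Ern1 was not called (log2 0.15, edgeR adjusted p = 0.144, 95% confidence interval 0.01 to 0.29) and neither was Atf6 (-0.08, -0.18 to 0.02). The calls of Pdia3, Hsp90b1, Herpud1, Calr and Dnajc3 were lost in 12, 5, 4, 3 and 3 alternatives (highest edgeR adjusted p = 0.241, 0.0938, 0.328, 0.13 and 0.18). The count of 12 genes in KO was 7 without replicate 2 of KO with OA and 8 without replicate 2 of KO with AA. In WT, Eif2ak3 was higher with AA (log2 0.15 ± 0.03, edgeR adjusted p = 0.00123) and Hspa5 (-0.13, 0.015) and P4hb (-0.14, 0.016) lower, while 2.95% of all tested genes were called, 1.95% higher and 0.999% lower. Without replicate 4 of WT with AA 1 gene was called, and the call of Hspa5 was lost without replicate 1 or 4 of WT with AA or replicate 3 of WT with OA (highest edgeR adjusted p = 0.0527). That of P4hb was lost without replicate 3 or 4 of WT with AA or replicate 4 of WT with OA (highest 0.109).

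The genes with an ERSE were set beside those without one. Of the 11 comparisons, those of KO with WT, of each acid with none in KO and of AA with OA in KO are given here. Of the 9 with the element, 6 were higher and 1 lower in untreated KO than in untreated WT (median log2 0.257), against 11 higher and 3 lower of the 18 with a window but no element (median 0.239). With AA, 5 of the 9 were higher and 1 lower in KO (median 0.138), against 11 and 2 of the 18 (median 0.182). With OA, 6 were higher and none lower (median 0.31), against 10 and 2 (median 0.126). For AA against none in KO, none was higher and 4 were lower (median -0.101), against 4 and 5 (median -0.0515). For OA against none in KO, 1 was higher and 1 lower (median 0.0615), against 3 and 5 (median 0.0178). With AA against OA in KO, none of the 9 was higher and 6 were lower (median -0.141), against 3 higher and 2 lower of the 18 (median 0.0359). Over all tested genes 6.73% were higher and 7.3% lower in that comparison. The count of 6 was 3 without replicate 2 of KO with OA and 4 to 7 without any other library of these groups. These counts describe the genes, and no test of the difference between them was made. Outside the list, 28 genes held an ERSE, of which 11 were tested. Of these, 2 were higher and 2 lower in untreated KO than in untreated WT (median log2 -0.148). With AA against OA in KO, 2 of the 11 were higher, 1 was lower and 8 were not called (median log2 0.126).

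Other genes of the same pathways were taken from 5 lists. In untreated KO against untreated WT, 22 of 32 genes of translocation and glycosylation were higher and 1 lower. Of 29 genes of transport between endoplasmic reticulum and Golgi 18 were higher and 3 lower. Of 28 other genes of folding and redox 14 were higher and 4 lower, and of 25 other ERAD genes 10 were higher and 4 lower. Of 28 other regulators of the unfolded protein response and the PERK branch 8 were higher and 3 lower. The called shares were 71.9%, 72.4%, 64.3%, 56% and 39.3%, in that order, against 49.8% of all tested genes. The medians of the log2 difference were 0.17, 0.17, 0.09, 0.05 and 0.01, in that order. Rpn1 and Rpn2, subunits of the oligosaccharyltransferase that attaches N-glycans, lay at 178 ± 5.22 and 82.7 ± 1.56 CPM in KO and at 128 ± 5.86 and 56.2 ± 1.7 CPM in WT (SD, n = 4 each), with log2 differences of 0.48 and 0.56. Vcp, the ATPase that pulls ERAD substrates from the membrane, lay at 288 ± 4.27 CPM in KO and 219.9 ± 3.43 CPM in WT (log2 0.39). Sec13, a subunit of the COPII coat of vesicles that leave the endoplasmic reticulum, lay at 52.7 ± 2.2 CPM in KO and 36.7 ± 2.28 CPM in WT (log2 0.52). These 4 genes were called, each with an edgeR adjusted p under the threshold.

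Among the other regulators of the unfolded protein response and the PERK branch, genes moved in both directions. Eif2s1, which encodes the eIF2α subunit that PERK phosphorylates, lay at 145 ± 3.44 CPM in untreated KO and 103 ± 2.24 CPM in untreated WT (log2 0.49 ± 0.033, edgeR adjusted p = 4.22e-15). Crebrf, a regulator of the response that binds the transcription factor CREB3, was lower, at 77.1 ± 2.53 CPM in KO and 131 ± 2.41 CPM in WT (log2 -0.76 ± 0.039, edgeR adjusted p = 2.58e-18). Both ran the opposite way with the fatty acids in KO. Those comparisons use the same untreated KO libraries by which the genes were chosen. An extreme value there would by itself give opposite signs. Eif2s1 lay at 110.1 ± 2.08 CPM with AA and 118 ± 4.22 CPM with OA, which is lower than untreated by 1.31-fold and 1.22-fold, and Crebrf at 103 ± 6.9 CPM with AA and 104 ± 1.69 CPM with OA (SD, n = 3 with OA), which is 1.34-fold higher with each. Ddit3, which encodes the stress transcription factor CHOP, lay at 98.4 ± 3.02 CPM in KO with AA, 92.6 ± 2.52 CPM in KO with OA and 72.1 ± 2.87 CPM in untreated KO, a rise of 1.36-fold with AA (edgeR adjusted p = 1.33e-10) and 1.28-fold with OA (1.27e-07). Ddit3 was not called between untreated KO and untreated WT. In WT, Ddit3 lay at 78.4 ± 1.68 CPM with AA, 82.4 ± 2.24 CPM with OA and 76.1 ± 6.16 CPM untreated and was not called. The effect on Ddit3 was higher in KO than in WT by 0.41 on the log2 scale for AA (edgeR adjusted p = 5.87e-06) and 0.25 for OA (0.00616). Trib3, a pseudokinase induced by CHOP, was 1.59-fold higher with AA than with OA in KO, at 6.88 ± 0.572 CPM with AA and 4.31 ± 0.405 CPM with OA.

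Over all 5 lists, AA in KO gave 19 genes higher and 25 lower, and OA in KO 16 higher and 20 lower, of 142 tested. That is 31% and 25.4% of the lists, against 27.6% and 23.2% of all tested genes. In WT none of the 142 was called with AA by edgeR (12, or 8.45%, had an unadjusted p under 0.05, against 7.89% of all tested genes) and 1, Sar1a, a GTPase of the COPII coat, with OA (log2 0.17, edgeR adjusted p = 0.0233). The genes of the lists with the smallest adjusted p with AA in KO included Ubxn4, an ERAD factor of the membrane, at 288 ± 19.9 CPM with AA and 211 ± 10.9 CPM untreated, and Mogs, the glucosidase that first trims N-glycans, at 31.1 ± 1.18 CPM with AA and 40.9 ± 0.713 CPM untreated.

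Some of these values carry a limit from overlapping genes. An exon of 10 of the 33 genes overlaps another gene, and for 6 of them, Hsp90b1, Manf, Eif2ak3, Syvn1, Derl2 and Sec61a1, the other gene held at least 5% of their counts. Mis12 held 215% of the counts of Derl2, Mrpl49 197% of those of Syvn1 and Vprbp 113% of those of Manf. Gm25745 held 45.7% of the counts of Hsp90b1 and Gm44170 17.9% of those of Sec61a1. Whether reads were counted by strand is not given in the sources used here, so the values of these 6 are uncertain. For Hsp90b1 (Gm15344 and Gm25745) and Manf (Rbm15b), some overlapping genes lie on the same strand. Counting by strand would not separate those. The gene over Eif2ak3, Gm43292 on the other strand, held 8.82% of its counts and differed by -0.24 on the log2 scale between untreated KO and untreated WT, and by 0.41 with AA and 0.07 with OA in KO. Between untreated KO and untreated WT, Vprbp differed by 0.25 and Rbm15b by 0.07, beside 0.25 for Manf. Gm25745 differed by 0.19, beside 0.26 for Hsp90b1. Between KO and WT with OA, Gm25745 differed by 0.64 and Gm15344 by 0.45, beside 0.48 for Hsp90b1. In the interaction for OA the values were 0.45 for Gm25745 and 0.21 for Gm15344, beside 0.22 for Hsp90b1. Between KO and WT with AA, Mis12 differed by 0.25, beside 0.14 for Derl2. The part of the overlapping genes in these values was not tested.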

How the data were processed

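Polyadenylated RNA of 23 libraries of spleen CD8+ T cells was prepared with TRIzol and a stranded library kit, per the labels' protocols. The submitters' processing notes name Trimmomatic 0.36, featureCounts, Subread 1.5.1 and the GRCm38 build. Neither the aligner nor the annotation release nor how strands and mates were counted is given in the sources used here. The deposited values are raw counts per gene. Columns were matched to samples by name, since the order of columns differs from that of the samples. Replicate 3 of untreated WT stands among the columns of untreated KO, and replicate 3 of untreated KO among those of untreated WT. Among counts from 1 to 19, 66.5% to 70.7% per library were even, as happens if 2 mates count separately.

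Genes were kept with filterByExpr of edgeR 4.0.16 (minimum count 10, minimum total 15), which left 18015 genes with 99.964% of counts. TMM factors were 0.9607 to 1.034. A quasi-likelihood model in R 4.3.3 with 1 mean per group over all 23 libraries gave the 11 comparisons, with 17 residual and 17.9 prior degrees of freedom and a common biological coefficient of variation of 4.97%. Each comparison was adjusted by Benjamini-Hochberg over the 18015 genes, at a threshold of 0.05. CPM values are scaled by TMM, and RPKM divides them by the gene length in the table. The procedure was tested on simulated data. Alternatives were DESeq2 1.42.0, scaling by RLE or by upper quartile, no filter on low counts, a filter at 1 CPM in 4 libraries with 10 CPM in at least 1, a fit of just the groups compared, a block for the replicate number, and leaving out each library. The set of genes that share no exon was added after seeing the data. Promoter sequences are RefSeq's for GRCm38.p6.

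The 33 genes and the lists were chosen with earlier results of these data known. Values per library are given for Hspa5, Xbp1, Atf6, Ern1 and Eif2ak3 and, in each comparison of KO with WT or of a fatty acid with none, for the 4 genes with the smallest adjusted p under 0.05. Other called genes are named with their fold or log2 difference, or its range. Up to 3 called genes per pathway list and comparison are named by smallest adjusted p. Per-library values of Sdf2l1, and the values of genes that were not called, were chosen after they were seen, as were Ddit3 and Trib3 across groups. Symbols of other lists that the table does not hold were not analysed here.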

Additional observations from a re-analysis of the deposited data

Results flagged for a closer look

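Among 165 groups of 4 libraries (33 genes), 5 held a library far from the other 3 by Dixon's test, where chance gives about 1 in 20. Creld2 lay at 35.4 CPM in replicate 3 of WT with AA, against 38.8 CPM in the others. Dnajc3 lay at 107.0 CPM in replicate 1 of KO with AA, against 99.3 to 99.8 CPM. Herpud1 lay at 9.03 CPM in replicate 3 of untreated KO, against 11.5 to 11.9 CPM, and at 12.3 CPM in replicate 2 of KO with AA, against 10.5 CPM. Hsp90b1 lay at 1542 CPM in replicate 3 of WT with OA, against 1461 to 1474 CPM.

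Effects of a fatty acid that differed between KO and WT by edgeR's interaction test are given as log2 effect in KO minus log2 effect in WT. For AA they were 0.50 for Eif2ak3, 0.29 for Ern1, 0.15 for Edem1, -0.20 for Pdia3, -0.27 for Calr, -0.31 for Hyou1 and -0.32 for Pdia6. For OA they were 0.42 for Eif2ak3, 0.24 for Pdia4, 0.22 for Hsp90b1, -0.13 for Pdia3, -0.15 for P4hb, -0.17 for Hyou1, -0.20 for Pdia6 and -0.30 for Txndc5.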

How the results depend on the processing

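Of the 33 genes, 25 were called between KO and WT without fatty acid (23 to 25 when each library was left out in turn), 23 with AA (19 to 23) and 22 with OA (20 to 22). In KO the counts were 16 with AA (13 to 16) and 10 with OA (7 to 11), and in WT 0 with AA (0 to 0) and 0 with OA (0 to 1). AA against OA gave 12 in KO (7 to 12) and 3 in WT (1 to 3), and the interaction 7 for AA (5 to 8) and 8 for OA (4 to 9). DESeq2 and the stricter filter each called 1 gene, Atf6, for OA in WT. With no filter 5 were called for the OA interaction. Its split of 3 higher and 5 lower was 3 and 3 with RLE or upper quartile factors. Over genes that share no exon with another gene, a set chosen after seeing the data with fewer genes by construction, 15 were called between KO and WT with AA, 6 for OA in KO, and 4 and 3 for the AA and OA interactions. No other count moved by over 1.5 times under the alternatives without a library left out. Among all tested genes, 75 were called for AA in WT, but 137 by DESeq2 and 48 without replicate 1 of untreated WT, and 672 for OA in WT, but 436 without replicate 2 of untreated WT. The only sign that turned was that of Atf6 with AA in WT, which was not called and lay at -0.00837 without replicate 1 of untreated WT, the lowest of a range up to 0.031 when each library was left out. The cause of these changes was not tested.

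With the replicate number as a block the counts were 25, 23, 22, 16, 8, 0, 0, 10, 3, 6 and 7, in the order above. The values did not show that the numbers pair the libraries. Deviations of same-numbered libraries had a median correlation of -0.0293 over 55 pairs (range -0.38 to 0.288). The median was 0.0167 over 165 pairs with different numbers (range -0.322 to 0.314). A best match with the same number was found for 5 of 23 libraries. Such correlations cannot tell whether same-numbered libraries shared an animal or batch. Depth limits the lowest genes most. The median half-width of the 95% confidence interval of a log2 change in WT was 0.0925 with AA and 0.0929 with OA over the 33 genes.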
